A study of Rattus norvegicus with 12 samples.

Results

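The DNA replication genes described here are 41 genes chosen by name, with earlier results of these data known. They license origins, unwind and copy DNA, load the sliding clamp, seal the lagging strand, supply nucleotides or rebuild chromatin behind the fork. Of these names, 40 had a row in a table of 21071 rat genes, and all 40 were among the 15650 genes that passed the filter on low counts. E2f1, the remaining name, was not analysed here.

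Nucleus pulposus cells of the rat, which fill the soft centre of the disc between vertebrae, were profiled by RNA sequencing in 4 groups of 3 libraries. The groups received NPPC-Exo (exosomes of nucleus pulposus progenitor cells), miR-Exo (such exosomes with miR-221-3p overexpressed), erastin with NPPC-Exo, or erastin with miR-Exo. A dose of 50 µg/mL is stated for NPPC-Exo and none separately for miR-Exo. Erastin, a blocker of cystine import used to start ferroptosis, was given at 0.1 to 5 µM for 48 h, with no dose stated for a single library. Every group received exosomes, so cells without them were not analysed here, and the labels give neither the animals nor the passage of the cultures. The agent that sets miR-Exo apart is a microRNA of the following mature sequence (RefSeq, GRCr8, chrX:6023246-6023268, plus strand), with its seed, bases 2 to 8, in capitals.
miR-221-3p: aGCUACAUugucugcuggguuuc

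Replication of a chromosome begins with licensing, in which the origin recognition complex, Cdc6 and Cdt1 load rings of the MCM helicase onto DNA before S phase. Kinases then recruit Cdc45 and GINS to the rings, and the opened forks are copied by primase and the polymerases, which a sliding clamp tethers to DNA. Many of these genes are known in mammalian cells as targets of E2F factors, which Rb family proteins hold in check in resting cells, and adult nucleus pulposus cells are known to divide slowly in the disc.

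Library totals ran from 54616827 to 68865720 counts. Nothing in the labels states that libraries came from separate cultures, so p-values measure the spread between libraries. NPPC-Exo 1 and miR-Exo 1 stood apart from their groups along the leading axis of the spread within groups, with scores of -0.60 and -0.41 against -0.30 to 0.37 in the other 10 libraries. The -0.30 was that of erastin with miR-Exo library 3, against 0.022 and 0.28 in its group. Of 15 nucleus pulposus markers, 11 had a row, and Acan and Col2a1 averaged 6389 and 1025 CPM in NPPC-Exo, while Krt18 was at 0 in 8 of the 12 libraries. The summed level of these 11 ranged from 7301 to 8309 CPM in NPPC-Exo, 7312 to 8775 in miR-Exo, 1295 to 1439 in erastin with NPPC-Exo and 1124 to 1181 in erastin with miR-Exo. Fibroblast markers (7 of 8 with a row) summed to 52837 to 60245, 51063 to 60054, 20809 to 24283 and 12453 to 16334 CPM in the same order. Leukocyte markers (8 of 10) summed to 7.38 to 9.28, 9.90 to 11.4, 13.0 to 17.7 and 22.2 to 29.6 CPM, mostly Cd14, with Adgre1 at 0 in 11 libraries and Aif1 in 10. Endothelial markers (4 of 7) stayed at or under 3.78 CPM with Kdr at 0 in 10 libraries, and erythroid markers (3 of 5) at or under 0.357 CPM. The sums of the nucleus pulposus and fibroblast lists rest mostly on Acan and Col2a1 and on Col1a1 and Col3a1, and other members moved the opposite way: under NPPC-Exo 3 nucleus pulposus markers were called higher and 4 lower with erastin, and under miR-Exo 3 fibroblast markers were higher and 4 lower, with Lum at a mean of 101 CPM without and 329 CPM with erastin. The part of these markers in the results below was not tested.

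Per unit of gene length, the replication genes spanned a wide range in cells given NPPC-Exo alone. The highest levels were those of Pcna, the sliding clamp, at 47.8 FPKM, and of Rrm2 and Rrm1, the small and large subunits of ribonucleotide reductase, at 38.6 and 34.8 FPKM. The lowest were Cdc45, a helicase activator, at 1.28 FPKM and the GINS subunit Gins3 at 1.46 FPKM, and the median over the 40 genes was 9.96 FPKM. The MCM2 to MCM7 subunits, which work as a ring with a copy of each, lay close together, from 15.7 FPKM for Mcm5 to 23.0 FPKM for Mcm4, a ratio of 1.47. GINS, another ring with a copy of each subunit, was less even, with Gins4 at 6.78 FPKM and 4.65 times the level of Gins3. These orders depend on the length given to each gene, which was not tested. In CPM, which does not use length, Cdc45 averaged 9.71 in NPPC-Exo, above Gins3 at 4.14. The highest GINS subunit was then Gins2 at 10.3 CPM.

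**Figure D1:**
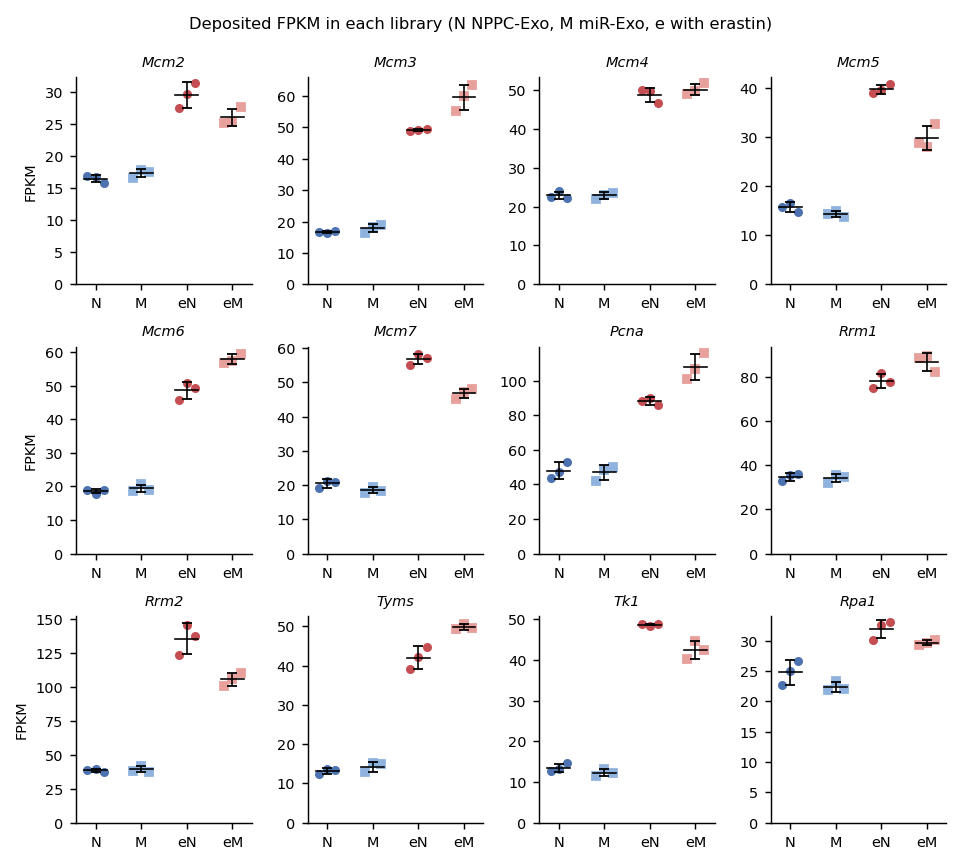
FPKM of 12 replication genes in each of the 12 libraries, grouped on the x axis as N (NPPC-Exo), M (miR-Exo), eN and eM (the same with erastin), with points for libraries, long bars for means and error bars for the SD (n = 3). The erastin libraries lie above the others for all 12 genes on this scale, which carries no correction for composition. They lie least far above for Rpa1, whose means were 24.8, 22.4, 31.9 and 29.7 FPKM. Rpa1 was not called for erastin under either kind of exosome in the fit to counts.

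With erastin the replication genes rose together under either kind of exosome. Their summed level was 1468, 1545 and 1530 CPM in NPPC-Exo and 2693, 2766 and 2776 CPM in erastin with NPPC-Exo, and 1361, 1414 and 1418 CPM in miR-Exo against 2395, 2468 and 2502 CPM in erastin with miR-Exo. All 6 erastin libraries lay above all 6 others. In bulk RNA, more cells of a kind and more RNA per cell cannot be told apart. Under NPPC-Exo 36 of the 40 genes were called higher and 0 lower at an adjusted p under 0.05 (edgeR's quasi-likelihood test, Benjamini-Hochberg over all genes tested), where 43.6% of all genes were called, 21.5% higher and 22.1% lower. The median log2 fold change of the 40 was 0.89, against 0.02 over all genes. Of the 36, 32 rose at least 1.5-fold and 16 at least 2-fold, which 11.7% and 6.78% of all genes did. The libraries of the groups did not overlap for 37 of the 40, all higher with erastin, against 27.0% of all genes higher and 26.6% lower.

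Under miR-Exo 34 of the 40 rose with erastin and 0 fell, with a median log2 fold change of 0.76 against 0.03 over all genes, where 49.1% of all genes were called, 24.7% higher and 24.4% lower. Rises of at least 1.5-fold and 2-fold numbered 27 and 10, against 12.8% and 7.21% of all genes. Groups did not overlap for 34 of the 40, all higher with erastin, against 30.3% of all genes higher and 28.1% lower. Scaling by library size alone moved the median of all genes to 0.30 under NPPC-Exo and 0.33 under miR-Exo, a shift that all genes share, so that the medians of the replication genes lie 0.87 and 0.73 above those of all genes on either scale by construction. The calls held in every alternative tried for 35 genes under NPPC-Exo and 32 under miR-Exo.

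**Figure D2:**
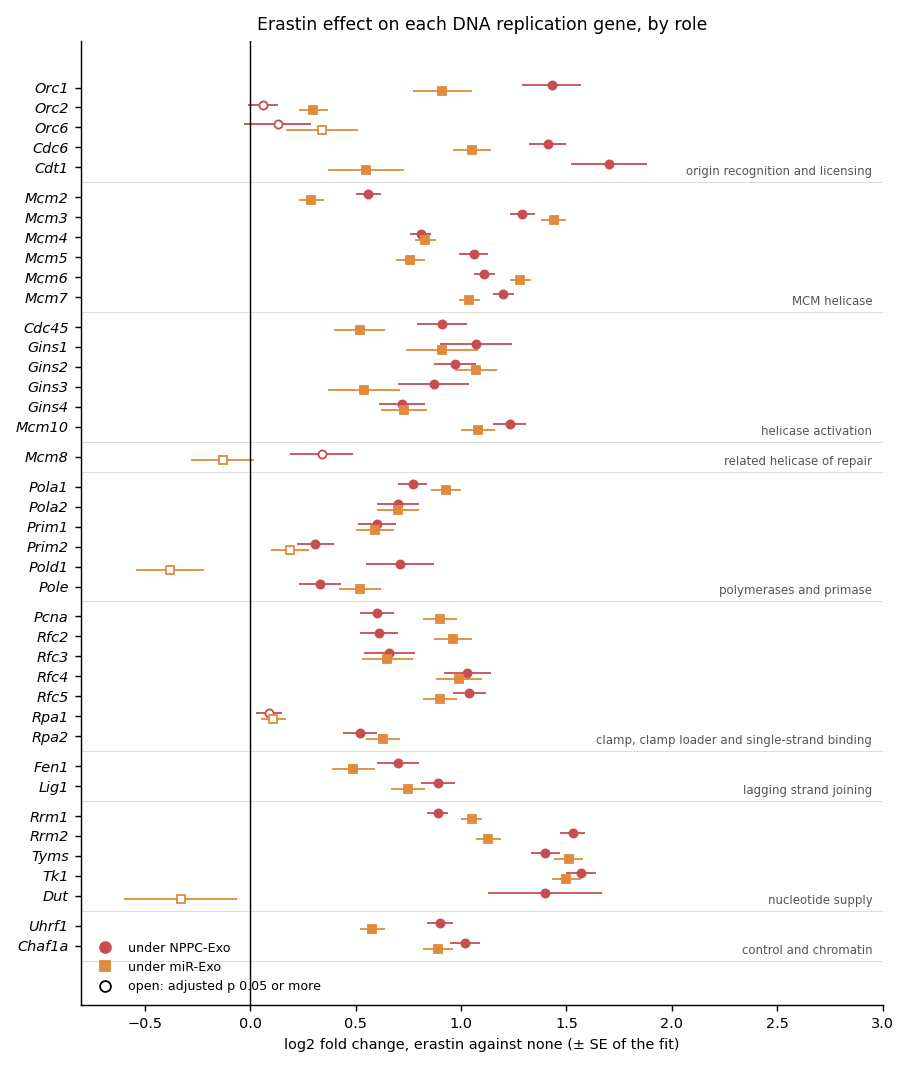
Log2 fold change of erastin against none for each of the 40 replication genes (x axis, with the SE of the fit), ordered by role, under NPPC-Exo (circles) and miR-Exo (squares), with open symbols where the adjusted p was 0.05 or more. Most genes lie between 0.5 and 1.5 under both kinds of exosome, and Orc6, Mcm8 and Rpa1 are open under both.

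Within licensing, Cdc6, Cdt1 and Orc1 rose with erastin under both kinds of exosome, while Orc2 rose under miR-Exo and Orc6 was called under neither. Cdc6, the ATPase that recruits the MCM ring, was at 14.7, 15.5 and 16.8 CPM in NPPC-Exo, 43.2, 42.4 and 39.0 CPM in erastin with NPPC-Exo, 13.6, 11.8 and 15.1 CPM in miR-Exo and 28.5, 27.9 and 27.2 CPM in erastin with miR-Exo. It rose 2.65-fold under NPPC-Exo (log2 fold change 1.41 ± 0.09 SE, adjusted p = 4.77e-08) and 2.06-fold under miR-Exo (1.05 ± 0.09, adjusted p = 7.67e-07), with no overlap of groups. Orc1, the subunit that comes and goes with the cell cycle, rose by 1.43 ± 0.14 and 0.91 ± 0.14 on the log2 scale.

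Cdt1, which brings the MCM ring to the origin and is destroyed in S phase, was at 10.5, 9.26 and 9.02 CPM in NPPC-Exo and 29.4, 30.4 and 33.8 CPM in erastin with NPPC-Exo. In miR-Exo it was at 15.4, 10.4 and 9.94 CPM, and in erastin with miR-Exo at 17.5, 13.4 and 21.3 CPM. The NPPC-Exo groups were far apart, while under miR-Exo the lowest erastin library lay below the highest library without erastin. Its rise of 1.70 ± 0.18 (log2) under NPPC-Exo was the largest of the 40 genes in that comparison, and its rise of 0.55 ± 0.18 under miR-Exo (adjusted p = 0.0207) lost its call in 5 of 24 alternatives, among them leaving out erastin with miR-Exo library 3 (0.37, adjusted p = 0.122). Orc2, a core subunit of the complex, was between 37.5 and 42.5 CPM in 9 libraries and at 44.6, 52.8 and 44.2 CPM in erastin with miR-Exo, with log2 fold changes of 0.06 ± 0.07 (not called, though called at 0.35 with scaling by library size alone) and 0.30 ± 0.07 (adjusted p = 0.0031). Orc6, the subunit least tightly bound, was not called under either (0.13 ± 0.16 and 0.34 ± 0.17), but was called under miR-Exo with library size alone (0.64, adjusted p = 0.00479) and without NPPC-Exo library 1 (0.34, adjusted p = 0.0472), and under both with limma on FPKM. The other subunits, named after their values were seen since they complete the complex, had values of -0.30 ± 0.07 for Orc3, which fell (adjusted p = 0.0049), 0.05 ± 0.09 for Orc4 and 0.10 ± 0.09 for Orc5 under NPPC-Exo, and Orc4 rose by 0.35 ± 0.09 (adjusted p = 0.00609) under miR-Exo.

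All 6 subunits of the MCM helicase rose with erastin under both kinds of exosome, with no overlap of groups for any of them, but by unequal amounts. Mcm3 was at 57.7, 56.3 and 58.8 CPM in NPPC-Exo, 141, 140 and 143 CPM in erastin with NPPC-Exo, 54.7, 59.0 and 62.2 CPM in miR-Exo and 148, 160 and 171 CPM in erastin with miR-Exo. It rose 2.45-fold and 2.72-fold (log2 1.29 ± 0.06 and 1.44 ± 0.06, adjusted p = 2.01e-09 and 5.5e-10). Mcm2, at 65.6, 64.7 and 61.4 CPM in NPPC-Exo and 88.5, 93.6 and 101 CPM in erastin with NPPC-Exo, rose 1.48-fold, and under miR-Exo, from 62.0, 63.7 and 64.7 to 75.1, 75.2 and 82.7 CPM, 1.22-fold. Mcm2 showed the smallest rise of the 6 in both comparisons. Mcm4, Mcm5, Mcm6 and Mcm7 rose by 0.81 ± 0.05, 1.06 ± 0.07, 1.11 ± 0.05 and 1.20 ± 0.05 (log2) under NPPC-Exo and by 0.83 ± 0.05, 0.76 ± 0.07, 1.28 ± 0.05 and 1.04 ± 0.05 under miR-Exo. The ratio of the highest to the lowest subunit in FPKM, which does not depend on how libraries are scaled, was 1.47 in NPPC-Exo (1.43 to 1.52 in single libraries) and 1.60 in miR-Exo (1.53 to 1.73). With erastin it was 1.92 under NPPC-Exo (1.82 to 2.01), with Mcm2 lowest and Mcm7 highest, and 2.29 under miR-Exo (2.25 to 2.37), with Mcm2 lowest and Mcm3 highest. The subunits of the ring were thus less even in all 6 erastin libraries than in any of the 6 others.

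E2F sites are the best known control element of these genes, so the promoters of the replication genes were read for their letters, whether or not a gene rose. Windows of 300 bases (250 before and 50 after the start of the gene) were held for 35 of the 40 genes (RefSeq, GRCr8), and the letters TTTGGCGC, TTTCCCGC, TTTCGCGC and TTTGCCGC were searched on both strands. Of the 35, 16 held a match (45.7%), as did 651 of the 27457 genes with a window (2.37%). That set was not limited to the genes tested for expression, and the share over those was not computed. All MCM2 to MCM7 genes with a window (Mcm2, Mcm3, Mcm5, Mcm6 and Mcm7) were among the 16. Stretches with matches are shown for 4 helicase subunits, the GINS subunit Gins1 and Tyms, with the letters of matches in capitals, where matches on opposite strands can overlap. They lie at chr4:122918095-122918154 (Mcm2, minus strand), chr19:13488583-13488812 (Mcm5, plus), chr13:42404353-42404512 (Mcm6, minus), chr12:22163179-22163258 (Mcm7, minus), chr3:160184860-160184919 (Gins1, plus) and chr9:120776084-120776143 (Tyms, minus).
Mcm2: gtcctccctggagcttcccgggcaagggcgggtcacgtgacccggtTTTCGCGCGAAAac
Mcm5: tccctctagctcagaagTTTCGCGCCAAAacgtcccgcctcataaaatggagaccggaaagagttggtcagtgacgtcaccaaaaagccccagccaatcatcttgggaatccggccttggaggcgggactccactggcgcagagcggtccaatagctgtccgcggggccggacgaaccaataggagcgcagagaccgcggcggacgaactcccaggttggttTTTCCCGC
Mcm6: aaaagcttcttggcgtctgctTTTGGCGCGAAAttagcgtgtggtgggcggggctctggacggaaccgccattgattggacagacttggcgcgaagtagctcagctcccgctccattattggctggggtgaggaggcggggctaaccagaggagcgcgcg
Mcm7: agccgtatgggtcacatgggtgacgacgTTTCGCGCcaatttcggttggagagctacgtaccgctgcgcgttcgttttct
Gins1: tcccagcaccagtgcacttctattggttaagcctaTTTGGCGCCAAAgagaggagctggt
Tyms: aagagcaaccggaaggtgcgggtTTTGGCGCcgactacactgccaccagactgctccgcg

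Strong rises were also measured for genes with no match. Thymidine kinase Tk1 rose 2.97-fold under NPPC-Exo, and its window, shown in part from chr10:103544778-103544897 (minus strand), held none of these letters. The median log2 fold change under NPPC-Exo was 0.90 over the 16 genes with a match and 0.71 over the 19 with a window and no match. Under miR-Exo it was 0.70 in each. The 5 genes without a window, which could not be read, had higher medians of 1.41 under NPPC-Exo and 0.91 under miR-Exo. The CCAAT box (letters CCAAT, both strands) was found for 22 of the 35 genes (62.9%) and for 39.6% of all genes with a window. The letters TTTGAA of the cell cycle homology region, an element known from genes of mitosis, were found for 3 of the 35 (8.57%). Of all genes with a window, tested for expression or not, 19.4% held them. These matches describe letters in a window and not binding.
Tk1: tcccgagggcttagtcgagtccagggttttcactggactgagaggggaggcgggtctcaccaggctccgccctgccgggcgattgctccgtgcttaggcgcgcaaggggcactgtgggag

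The genes that turn the loaded ring into an active helicase rose as a group, all 6 under both kinds of exosome. Mcm10, a scaffold needed to start unwinding, was at 19.9, 22.0 and 22.6 CPM in NPPC-Exo, 50.0, 52.2 and 49.7 CPM in erastin with NPPC-Exo, 19.2 to 20.1 CPM in miR-Exo and 42.0, 45.4 and 37.8 CPM in erastin with miR-Exo. It rose by 1.23 ± 0.08 and 1.08 ± 0.08 (log2) and its groups did not overlap. Cdc45, which with GINS completes the helicase, rose by 0.91 ± 0.12 and 0.52 ± 0.12, and the 4 GINS subunits by 0.72 to 1.07 under NPPC-Exo and 0.54 to 1.07 under miR-Exo. The rise of Gins3 under miR-Exo (0.54 ± 0.17, adjusted p = 0.0199) was lost without erastin with miR-Exo library 3, miR-Exo library 2 or miR-Exo library 3, with values from 0.41 to 0.48. Mcm8, a relative of the helicase that works with MCM9 in repair by homologous recombination, was not called under NPPC-Exo (0.34 ± 0.15, adjusted p = 0.0928) or miR-Exo (-0.13 ± 0.15). Under NPPC-Exo its groups did not overlap. It was called higher there without NPPC-Exo library 3 (0.46, adjusted p = 0.0427), with library size alone (0.62) and with limma on FPKM. Removal of the leading axis of the spread also takes from each group mean the part that runs along that axis. In that fit, which treats the axis as known, Mcm8 was called in opposite directions, 0.36 (adjusted p = 0.0138) and -0.54 (adjusted p = 0.000925).

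Among the polymerases and primase, Pola1, Pola2, Prim1 and Pole rose under both kinds of exosome, while Prim2 and Pold1 rose under NPPC-Exo and were not called under miR-Exo. Pola1 and Pola2, the catalytic and accessory subunits of polymerase alpha, rose by 0.77 ± 0.07 and 0.70 ± 0.10 (log2) under NPPC-Exo and by 0.93 ± 0.07 and 0.70 ± 0.10 under miR-Exo. Prim1, the catalytic subunit of primase, rose by 0.60 ± 0.09 and 0.59 ± 0.09, while its partner Prim2 rose by 0.31 ± 0.09 under NPPC-Exo and was at 0.19 ± 0.09 (adjusted p = 0.0819) under miR-Exo, where it was called without erastin with miR-Exo library 3 (0.25, adjusted p = 0.0223) and with library size alone (0.50). Pole, which copies the leading strand, rose by 0.33 ± 0.10 and 0.52 ± 0.10, the first of which was lost without NPPC-Exo library 3 (0.30) or erastin with NPPC-Exo library 1 (0.22).

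Pold1, the catalytic subunit of the lagging strand polymerase, was at 28.2, 27.8 and 22.6 CPM in NPPC-Exo and 40.1, 44.3 and 44.2 CPM in erastin with NPPC-Exo. In miR-Exo it was at 25.6, 24.4 and 25.5 CPM, and in erastin with miR-Exo at 17.1, 14.8 and 26.0 CPM. Its erastin libraries were the higher ones under NPPC-Exo, with no overlap (0.71 ± 0.16 on the log2 scale, adjusted p = 0.00292). Under miR-Exo 2 of the 3 erastin libraries lay below every library without erastin and the last lay above (-0.38 ± 0.16, adjusted p = 0.0682), and without that last library Pold1 fell by 0.67 (adjusted p = 0.000315). The accessory subunits of polymerase delta did not move alike under NPPC-Exo. There Pold3 rose by 0.74 ± 0.08, Pold2 rose by 0.45 ± 0.16 with overlapping groups, and Pold4 fell by 1.58 (SE 0.11).

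The sliding clamp and its loader rose under both kinds of exosome, and the single-strand binding protein moved unevenly. Pcna was at 60.3, 64.5 and 73.0 CPM in NPPC-Exo, 101, 101 and 97.8 CPM in erastin with NPPC-Exo, 55.8, 61.4 and 66.0 CPM in miR-Exo and 107, 113 and 123 CPM in erastin with miR-Exo. It rose 1.52-fold and 1.87-fold (log2 0.60 ± 0.08 and 0.90 ± 0.08), without overlap. The 4 loader subunits Rfc2, Rfc3, Rfc4 and Rfc5 rose by 0.61 to 1.04 (log2) under NPPC-Exo and 0.65 to 0.99 under miR-Exo, while their large partner Rfc1, named after its value was seen, was at -0.07 ± 0.07 and 0.10 ± 0.07. Rpa1, the large subunit of replication protein A, had the highest CPM of the clamp and binding genes, at 165, 180 and 193 CPM in NPPC-Exo and 181, 192 and 198 CPM in erastin with NPPC-Exo. These groups overlapped, and neither value for erastin was called (0.09 ± 0.06 and 0.11 ± 0.06), although with scaling by library size alone both were (0.37 and 0.41). Rpa2, the middle subunit, rose by 0.52 ± 0.08 and 0.63 ± 0.08.

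Both enzymes that finish lagging strand fragments rose. Fen1, which cuts off displaced flaps, rose by 0.70 ± 0.10 and 0.49 ± 0.10 (log2), and Lig1, the ligase that seals the nicks, by 0.89 ± 0.08 and 0.75 ± 0.08. Lig1 was at 38.3, 38.2 and 38.7 CPM in NPPC-Exo and 68.4, 68.9 and 75.5 CPM in erastin with NPPC-Exo, and at 41.5, 39.7 and 43.9 CPM in miR-Exo and 71.8, 76.8 and 62.4 CPM in erastin with miR-Exo. The erastin libraries lay above the others in each pair of groups.

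Nucleotide supply held several of the largest rises. Tk1, which salvages thymidine, was at 33.9, 34.4 and 38.7 CPM in NPPC-Exo, 107, 104 and 107 CPM in erastin with NPPC-Exo, 29.0, 32.0 and 30.6 CPM in miR-Exo and 81.7, 90 and 86.7 CPM in erastin with miR-Exo. It rose 2.97-fold and 2.82-fold (adjusted p = 5.99e-10 and 7.06e-10), with the groups far apart. Tyms, which makes thymidylate from dUMP, rose by 1.40 ± 0.07 under NPPC-Exo and 1.51 ± 0.07 under miR-Exo, the largest rise of the 40 genes there, from 22.4, 25.5 and 25.8 CPM to 68.9, 70.8 and 69.6 CPM.

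The subunits of ribonucleotide reductase, which makes deoxyribonucleotides and whose small subunit Rrm2 is the one made in S phase, rose to different extents. Rrm2 was at 54.7, 55.1 and 51.8 CPM in NPPC-Exo, 143, 165 and 159 CPM in erastin with NPPC-Exo, 51.4, 53.9 and 50.0 CPM in miR-Exo and 108, 113 and 118 CPM in erastin with miR-Exo. It rose 2.89-fold and 2.19-fold, and Rrm1 1.85-fold and 2.07-fold. In FPKM the ratio of Rrm2 to Rrm1 was 1.11 in NPPC-Exo, 1.15 in miR-Exo, 1.73 in erastin with NPPC-Exo (1.64 to 1.78 in single libraries) and 1.22 in erastin with miR-Exo (1.14 to 1.34).

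Dut, the enzyme that breaks down dUTP so that uracil is kept out of DNA, was at 15.1, 7.74 and 7.23 CPM in NPPC-Exo and 20.4, 29.9 and 29.2 CPM in erastin with NPPC-Exo. In miR-Exo it was at 14.4, 14.0 and 11.9 CPM and in erastin with miR-Exo at 9.87, 7.94 and 14.3 CPM. It rose under NPPC-Exo (log2 fold change 1.40 ± 0.27, adjusted p = 0.000939), with no overlap, and was not called under miR-Exo (-0.33 ± 0.27, adjusted p = 0.353), where the groups overlapped. Dut had the widest spread of the 40 genes in NPPC-Exo, with a coefficient of variation of 44.0%. With the leading axis of the spread within groups removed, from group means as well, its value under miR-Exo changed sign and was called (0.55, adjusted p = 0.00455).

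Uhrf1, which reads newly copied DNA and brings the maintenance methyltransferase to it, rose by 0.90 ± 0.06 (log2) under NPPC-Exo and 0.58 ± 0.06 under miR-Exo. Chaf1a, the large subunit of the assembly factor that places histones behind the fork, rose by 1.02 ± 0.07 and 0.89 ± 0.07, from 28.6, 35.0 and 32.2 CPM to 66.8, 63.2 and 64.8 CPM under NPPC-Exo. Both had no overlap of groups under either kind of exosome.

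Without erastin, miR-Exo and NPPC-Exo differed little in these genes. Of the 40, 6 were called lower with miR-Exo and 0 higher, where 10.7% of all genes were called, 6.52% lower and 4.15% higher, and the median log2 fold change was -0.09 against 0.00 over all genes. Uhrf1 was at 63.2, 66.4 and 60.9 CPM in NPPC-Exo and at 47.3, 45.1 and 46.5 CPM in miR-Exo. All miR-Exo libraries lay below all NPPC-Exo libraries, and the fall of 0.45 (log2, SE 0.06, adjusted p = 0.00073) was called in all 24 alternatives. The other 5 were Pole, which fell by 0.42 (SE 0.10, adjusted p = 0.0173), Gins1, which fell by 0.60 (SE 0.17, adjusted p = 0.0453), and Mcm7, Tk1 and Rpa1, each of which fell by 0.22. Each of these 5 lost its call in at least 5 of the 24 alternatives, and the count of calls depended on single libraries. It was 9 without NPPC-Exo library 1, 1 without library 2 and 3 without library 3, and 2, 2 and 3 without miR-Exo libraries 1, 2 and 3. Without NPPC-Exo 1 and miR-Exo 1, the libraries that stood apart, 4 genes were called. Groups did not overlap for 9 genes lower and 2 higher with miR-Exo, against 15.8% and 13.0% of all genes.

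**Figure D3:**
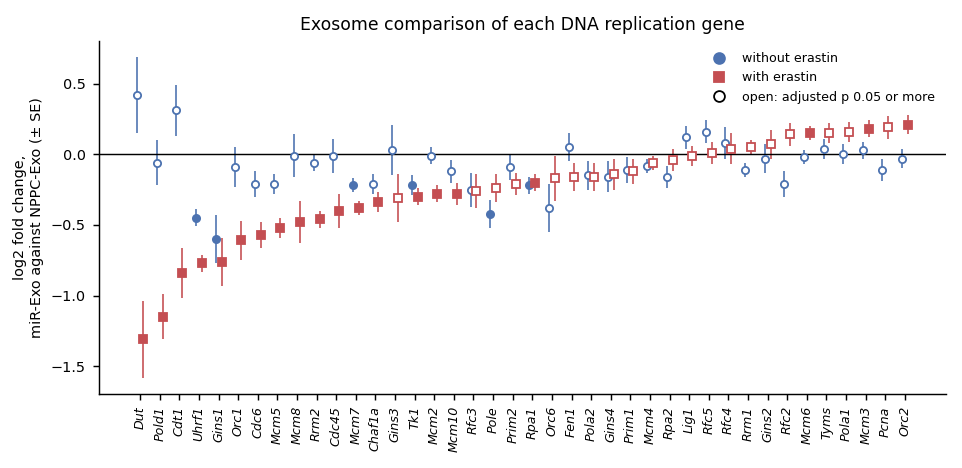
Log2 fold change of miR-Exo against NPPC-Exo (y axis, with the SE of the fit) for each of the 40 replication genes, without erastin (circles) and with erastin (squares), ordered by the value with erastin, with open symbols where the adjusted p was 0.05 or more. With erastin the values reach from -1.31 for Dut to 0.21 for Orc2, and without it from -0.60 for Gins1 to 0.42 for Dut.

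In the presence of erastin the replication genes were more often lower than higher with miR-Exo. Of the 40, 17 were lower and 3 higher, where 31.3% of all genes were called, 15.8% lower and 15.6% higher, and the median was -0.21 against 0.01 over all genes. With scaling by library size alone, which moved the median of all genes to 0.11, 13 were lower and 8 higher. Groups did not overlap for 20 genes lower and 7 higher with miR-Exo, against 23.4% and 24.5% of all genes. The comparison shares libraries with those of erastin against none, so the values stand side by side and are not independent.

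The lower genes included licensing factors, helicase subunits, nucleotide enzymes and both chromatin genes. Uhrf1 was at 115, 115 and 125 CPM in erastin with NPPC-Exo and at 70.2, 63.7 and 74.1 CPM in erastin with miR-Exo, a fall of 0.77 (log2, SE 0.06, adjusted p = 2.27e-06). Pold1 fell by 1.15 (SE 0.16), Cdt1 by 0.84 (SE 0.18), Gins1 by 0.76 (SE 0.17), Orc1 by 0.61 (SE 0.14) and Cdc6 by 0.57 (SE 0.09). Dut fell by 1.31 (SE 0.27, adjusted p = 0.0028), to 0.404 times its level with NPPC-Exo. The groups did not overlap for any of these 7 genes. Of the MCM ring, Mcm2, Mcm5 and Mcm7 fell by 0.28, 0.52 and 0.38, while Mcm3 and Mcm6 rose by 0.18 and 0.15 (adjusted p = 0.04 and 0.0407) and Mcm4 was at -0.06 ± 0.05. The higher genes, Mcm3, Mcm6 and Orc2, were called in 16, 13 and 11 of 24 alternatives. Their lowest values were 0.11 for Mcm3 without erastin with miR-Exo library 3 (adjusted p = 0.209), 0.09 for Mcm6 without erastin with NPPC-Exo library 1 (adjusted p = 0.263) and 0.10 for Orc2 without erastin with miR-Exo library 2 (adjusted p = 0.283). Calls held in all 24 alternatives for 13 of the 17 lower genes, Cdc6, Cdt1, Chaf1a, Dut, Gins1, Mcm2, Mcm5, Mcm7, Orc1, Pold1, Rrm2, Tk1 and Uhrf1, and for 0 of the 3 higher ones. Cdkn1b, the CDK inhibitor p27 and a reported target of miR-221-3p in human cells, fell by 0.64 (SE 0.13) without erastin and by 1.79 (SE 0.14, adjusted p = 1.26e-06) with it. It lay at percentile 6.32 on the leading axis of the spread within groups, with NPPC-Exo library 1 at 50.3 CPM against 34.4 and 34.7 CPM in its group. Of 6 CDK inhibitors tested, 1 was higher and 1 lower with miR-Exo without erastin, and in the presence of erastin 1 was higher and 2 lower. Cdkn1c, also among these 6 and at a low level, moved the opposite way to Cdkn1b. It averaged 0.688 CPM in NPPC-Exo and 1.76 CPM in miR-Exo. Its mean was 1.87 CPM in erastin with NPPC-Exo and 3.73 CPM in erastin with miR-Exo. Neither pair of groups overlapped for Cdkn1c.

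**Figure D4:**
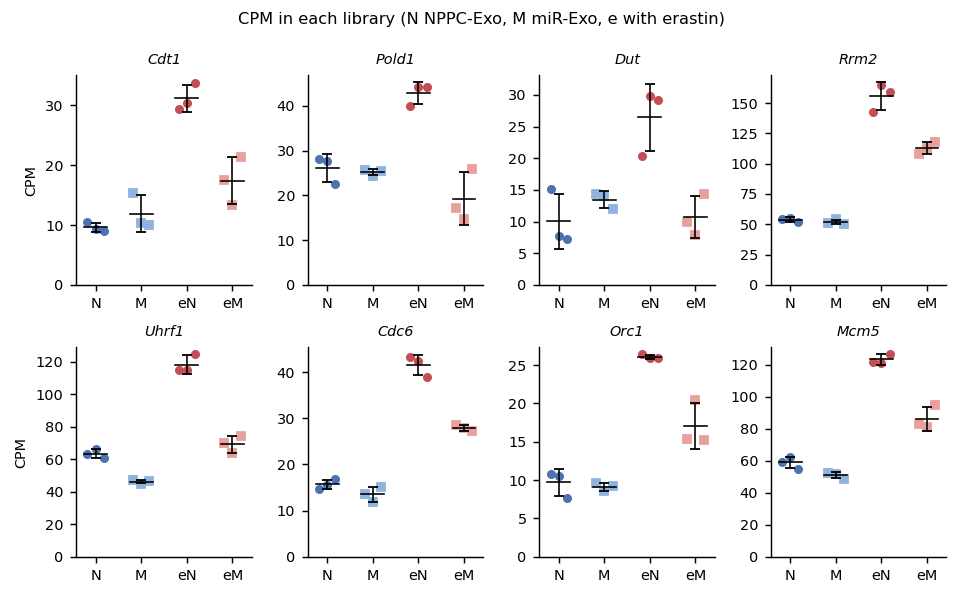
CPM of 8 replication genes in each of the 12 libraries, grouped on the x axis as N (NPPC-Exo), M (miR-Exo), eN and eM (the same with erastin), with points for libraries, long bars for means and error bars for the SD (n = 3). The genes shown are the 5 called for the interaction of erastin and exosome type, with Cdc6, Orc1 and Mcm5, all called lower with miR-Exo in the presence of erastin. By this choice the 3 libraries of erastin with miR-Exo lie below the 3 of erastin with NPPC-Exo in all 8. Over the 40 genes, 20 were lower and 7 higher without overlap. For Pold1 and Dut the libraries of erastin with miR-Exo lie near or below the libraries without erastin.

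The effect of erastin itself differed between the kinds of exosome for 5 of the 40 genes, all with a lower value under miR-Exo (interaction term of the same model). Over all genes 12.8% were called, 7.01% lower and 5.81% higher, so the number called among the replication genes was no more than the share over all genes gives. The interaction was -1.73 ± 0.39 (log2 ± SE, adjusted p = 0.0124) for Dut, -1.15 ± 0.25 (adjusted p = 0.0112) for Cdt1, -1.09 ± 0.23 (adjusted p = 0.00937) for Pold1, -0.40 ± 0.09 (adjusted p = 0.0112) for Rrm2 and -0.32 ± 0.09 (adjusted p = 0.0383) for Uhrf1. The first 4 were called in all 23 alternatives and Uhrf1 in 11 of them. Mcm5 and Mcm2 lay just outside the threshold (-0.30 ± 0.10, adjusted p = 0.0547, and -0.27 ± 0.09, adjusted p = 0.0575). The median over the 40 genes was -0.10 against 0.03 over all genes.

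These genes are also placed unevenly along the leading axis of the spread within groups, the axis on which NPPC-Exo 1 and miR-Exo 1 stood apart. Ranked among 10162 genes, Dut lay at percentile 1.03, Cdt1 at 3.54 and Pold1 at 7.01, beside Cdkn1a, the CDK inhibitor p21, at 0.748, while Rrm2 and Uhrf1 lay at 29.1 and 24.2. With this axis removed, from group means as well and in a fit that treats it as known, the interaction was -0.90 (adjusted p = 0.00875) for Dut. It was -0.59 (adjusted p = 0.0219) for Cdt1, -0.74 (adjusted p = 0.0172) for Pold1 and -0.34 (adjusted p = 0.0125) for Rrm2, and it was lost for Uhrf1 (-0.22, adjusted p = 0.0811). Mcm8 then had an interaction of -0.91 (adjusted p = 0.00209), against -0.47 ± 0.22 (adjusted p = 0.176) with the axis kept. Without the libraries that stood apart, 4 genes were called. Cdkn1a was at 253, 136 and 137 CPM in NPPC-Exo and 476, 286 and 209 CPM in miR-Exo, highest in each group in the library that stood apart.

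**Figure D5:**
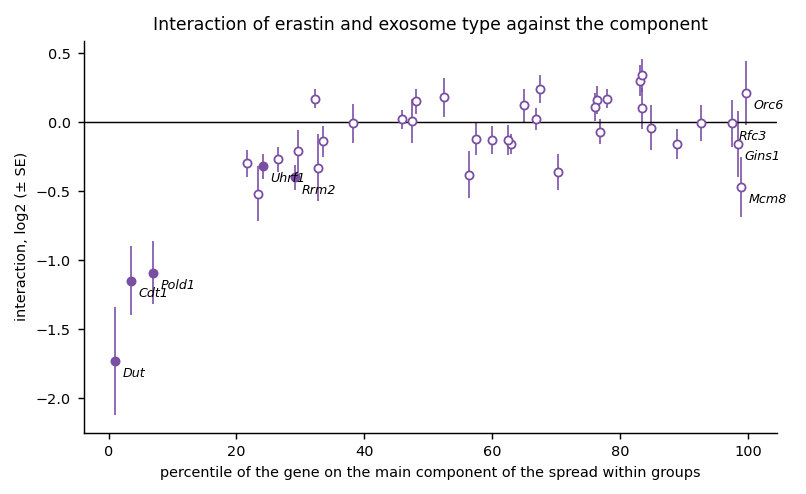
Interaction of erastin and exosome type (y axis, log2 with SE) against the percentile of each of the 40 genes on the main component (the leading axis) of the spread within groups (x axis), with filled points where the adjusted p was under 0.05. Dut, Cdt1 and Pold1 lie at the far left with the lowest values, and Orc6, Mcm8, Gins1 and Rfc3 at the far right, from percentile 97.4 up, are not called.

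Other genes of the pathway, taken from lists by function, are given beside the 21.5% of all genes called higher and 22.1% lower under NPPC-Exo, and 24.7% and 24.4% under miR-Exo. Of 15 genes that fire origins or control firing, 15 rose under NPPC-Exo and 15 under miR-Exo. Of 27 further genes of the replication machinery, 16 rose and 2 fell under NPPC-Exo, and 13 rose and 1 fell under miR-Exo, with the fork proteins Timeless (0.85 ± 0.06 and 0.93 ± 0.06, log2) and Wdhd1 (0.84 ± 0.06 and 1.16 ± 0.06) among those that rose and Pold4 (-1.58 ± 0.11 and -1.02 ± 0.11) the one that fell under both. Of 22 genes of replication stress and S-phase repair, 18 rose and 1 fell, and 19 rose and 0 fell. Of 13 genes of chromatin copied with DNA, 10 rose and 0 fell, and 11 rose and 1 fell, with the histone chaperone Nasp (1.24 ± 0.05 and 1.43 ± 0.05) among those that rose. Nucleotide supply beyond the 5 genes above was more mixed, with 9 of 18 higher and 3 lower under NPPC-Exo and 11 higher and 2 lower under miR-Exo. Dck, a salvage kinase, rose by 1.14 ± 0.14 and 1.03 ± 0.14, and the CTP synthetase Ctps1 fell by 0.44 (SE 0.07) and 0.53 (SE 0.07).

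Cyclin E and its kinase were higher, not lower, with miR-Exo in the presence of erastin. Ccne2 was at 88.5, 96.6 and 82.8 CPM in erastin with NPPC-Exo and at 117, 119 and 104 CPM in erastin with miR-Exo, and at 46.1, 44.9 and 44.2 CPM and 32.4, 37.8 and 36.8 CPM without erastin. With miR-Exo it was thus lower without erastin and higher with it, without overlap, and its interaction was 0.68 ± 0.11 (log2, adjusted p = 0.00194). Ccne1 and Cdk2, the other cyclin E and the kinase both switch on, had interactions of 0.68 ± 0.10 (adjusted p = 0.00156) and 0.59 ± 0.10 (adjusted p = 0.00264). Gmnn, the inhibitor of Cdt1 known as geminin, rose with erastin by 1.30 ± 0.11 and 0.88 ± 0.11, and cyclin A2, Ccna2, by 1.10 ± 0.09 and 0.90 ± 0.09, and both were lower with miR-Exo in the presence of erastin (-0.49 ± 0.11 and -0.38 ± 0.08).

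Genes upstream of replication were mixed, and those of G2 and mitosis nearly all rose with erastin, beside the same shares over all genes. Among 14 genes of E2F factors and pocket proteins 9 rose, 2 fell and 3 were not called under each kind of exosome. The E2F target Mybl2 was at 42.4, 43.2 and 42.6 CPM in NPPC-Exo and 122, 124 and 124 CPM in erastin with NPPC-Exo (1.53 ± 0.05, log2), and the repressor E2Fs E2f7 and E2f8 rose by 1.02 ± 0.14 and 1.46 ± 0.13. Of 19 genes of G2 and mitosis, 19 rose under NPPC-Exo and 18 under miR-Exo, with medians of 1.27 and 1.03, and Mki67, a marker of cycling cells, rose by 1.27 ± 0.08 and 1.08 ± 0.08. With erastin present, 16 of these 19 were lower with miR-Exo and 0 higher, against 15.8% and 15.6% of all genes. Of 6 CDK inhibitors, 4 rose and 0 fell with erastin under NPPC-Exo, and 3 rose and 2 fell under miR-Exo. The CDK inhibitor Cdkn2c, known as p18, rose by 0.93 ± 0.11 and 0.79 ± 0.11, while Cdkn1a was at 0.40 ± 0.28 (adjusted p = 0.282) and fell by 0.83 (SE 0.28, adjusted p = 0.0269) under miR-Exo, with overlapping groups.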

How the data were processed

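Per the file headers, the authors deposited gene counts and FPKM side by side for all 12 libraries. Per the submitters' processing notes StringTie and mRatBN7.2 were used. Aligner, counting tool, versions and filters: not given in the sources used here. Libraries were strand-marked, per the labels' protocols, but whether counting used strand is not stated. The 4 members that overlap another gene on the same strand are less certain however strand was used, above all Pola2, which overlaps Cdc42ep2 (4.33 CPM). How reads shared with pseudogenes were counted is not stated either, and 11 members have a named pseudogene copy. Genes were filtered with filterByExpr (15650 of 21071 kept), scaled by TMM (factors 0.877 to 1.15) and tested with edgeR 4.0.16 (quasi-likelihood, 4 group means, all 12 libraries) in R 4.3.3, called at an adjusted p under 0.05. CPM use the scaled totals. The script was tested on simulated data. Alternatives used RLE scaling, library size alone, other filters, halved counts (57.3% of counts from 1 to 20 were even), DESeq2 1.42.0, limma 3.58.1 on log2(FPKM + 1) and log2(FPKM + 0.1), the groups of a comparison alone, replicate numbers as a block, and each library left out. Leaving out NPPC-Exo 1 with miR-Exo 1, and removing the leading axis of the spread within groups, were chosen after seeing the data. That axis held 30.4% of the spread. Its removal also took out the part of each group mean that ran along it. That fit treated the axis as known, so its adjusted p-values are likely too small. All members were eligible to be named. Of other lists up to 4 called genes per list and comparison with the smallest adjusted p were eligible, along with 8 cell cycle genes whatever their result. Members and lists were chosen with earlier results of these data known. No genome coordinates of the deposited table are printed, since its build is uncertain.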

Additional observations from a re-analysis of the deposited data

Results flagged for a closer look

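For 5 replication genes the effect of erastin differed between the kinds of exosome by the interaction term of the edgeR model, each with 3 libraries in each of 4 groups. Of all genes tested 12.8% were called for the interaction, so 5 of 40 is no more than that share. The interaction (erastin effect under miR-Exo minus that under NPPC-Exo, log2) was -1.09 for Pold1, -1.15 for Cdt1, -0.40 for Rrm2, -1.73 for Dut and -0.32 for Uhrf1. In all 5 the libraries of erastin with miR-Exo lay below those of erastin with NPPC-Exo. Dut, Cdt1 and Pold1 also vary along the leading axis of the spread within groups, and beyond the values with that axis removed its part in the result was not tested.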

How the results depend on the processing

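No replication gene that was called reversed its direction in any alternative tried. Counts of called replication genes without each library in turn ranged from 35 to 36 for erastin under NPPC-Exo (36 as reported), 32 to 35 under miR-Exo (34), 1 to 9 for miR-Exo against NPPC-Exo without erastin (6), 16 to 20 with erastin (20) and 4 to 7 for the interaction (5). The other alternatives gave 36 to 40, 33 to 37, 1 to 7, 17 to 24 and 4 to 8 in the same order. For miR-Exo against NPPC-Exo without erastin the count was 2 with library size alone and with only the groups compared, and 1 with limma on either log2 FPKM scale, and for these the cause was not tested, apart from the 6 libraries that the groups compared leave. For the interaction it was 8 with the leading axis of the spread within groups removed. Deviations from group means correlated from -0.0573 to 0.122 between libraries of the same replicate number, and from -0.103 to 0.0706 between the others. The 0.122 was that of NPPC-Exo 1 and miR-Exo 1, the libraries that stood apart. With a replicate block 36, 34, 6, 20 and 5 genes were called. Averaged over all genes with enough counts, libraries of a group differed by 12.4 to 50.6 times the sampling variance. Abundant genes can weigh most in this mean, so it does not show what limits the comparisons of the replication genes. Some of these varied little, such as Lig1 in NPPC-Exo with a coefficient of variation of 0.697%, and Dut in NPPC-Exo varied by 44.0%.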
